A study of Mus musculus with 73 samples.

Results

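Fkbp6, Cdh15, Cdkl4, Tmcc1, Zfp473 and Galnt6 are protein-coding genes outside the classic imprinted clusters that read mainly from 1 parental allele in at least 1 wild-type tissue of mouse embryos at embryonic day 6.5. They were taken by name, as 6 rows of a table of 30546 genes, and were selected on the deposited allelic ratios of the wild-type libraries, which leaned to 1 parent. Their wild-type bias is therefore described below without a test. In extra-embryonic ectoderm (ExE) 5 of the 6 gave at least 10 reads in 3 or more libraries of both wild-type crosses, and Tmcc1 did so in epiblast.

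Imprinted genes are those in which the copy inherited from 1 parent is silenced. At most of the classic imprinted loci the mark is DNA methylation laid down in the egg or the sperm and copied at each cell division by the maintenance methyltransferase DNMT1. A second kind, often called noncanonical imprinting, depends on repressive histone marks brought in by the egg and is best known from the ExE, the trophoblast tissue that goes on to form part of the placenta. The histone methyltransferases G9a (Ehmt2) and GLP (Ehmt1), the Polycomb repressive complex 1 ubiquitin ligase RNF2 and the Polycomb repressive complex 2 subunit EED each maintain repressive chromatin.

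RNA was measured in epiblast, the tissue that forms the embryo proper, and in ExE of the same embryos. The wild-type BDF1xCAST embryos (7 embryos) came from BDF1 oocytes injected with CAST sperm. Wild-type CASTxBDF1 embryos (4 embryos) carried the reciprocal parentage and came from natural mating, so parental direction and way of fertilisation cannot be told apart between the crosses. All knockouts had the BDF1xCAST parentage and were made in the zygote with Cas9 mRNA and 3 to 4 guides per gene: Dnmt1 KO (3 embryos), G9a-Glp KO (9 embryos, with 6 epiblast and 8 ExE libraries), Rnf2 KO (8 embryos, 6 and 5) and Eed KO (10 embryos, 9 and 10). Zygotic editing leaves the egg's own protein in place, and an embryo can hold edited and unedited cells. Each library came from 300 to 600 cells of 1 embryo, and in such bulk samples fewer cells of a type and less RNA per cell cannot be told apart.

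The 72 libraries held 1141414 to 17653087 reads over strain-specific variants. The deepest were in Rnf2 KO, with 5549733 to 17653087 in epiblast and 1847681 to 10263280 in ExE. On average 56.4% to 57.7% of autosomal reads were maternal in the groups with BDF1 mothers and 42.5% and 43.0% in those with CAST mothers, so BDF1 alleles held the larger share in each group. Summed ExE markers reached 522 to 1131 CPM (reads of a gene per 1000000 counted reads of the library) in the wild-type BDF1xCAST ExE against 41.3 to 258 CPM in its epiblast. The epiblast markers were the higher ones in epiblast (986 to 1905 CPM against 114.7 to 299 CPM), although Pou5f1, a defining epiblast gene, reached no more than 1.61 CPM there, and Utf1 of the same list had a median of 65.3 CPM there against 215 CPM in ExE. In all 4 knockouts the summed epiblast markers in ExE were above those of wild-type BDF1xCAST ExE, with lowest libraries of 340 to 455 CPM. The wild-type BDF1xCAST ExE sum had a median of 218 CPM, near the 215 CPM of Utf1 alone. The sum in ExE thus rests largely on a gene that was higher in ExE than in epiblast, and is no measure of epiblast cells there. The ExE markers in Eed KO ExE were at 333 to 620 CPM. The part of these markers in the changes reported for ExE was not tested. Visceral endoderm markers summed to 2910 CPM in 1 wild-type CASTxBDF1 epiblast library and to 5.03 to 580 CPM in the BDF1xCAST epiblast. Decidua markers stayed at or under 2.19 CPM in every ExE library and between 1.98 and 29.3 CPM in epiblast. In 6 knockout libraries no targeted gene was below the second lowest wild-type library: Dnmt1 KO ExE embryo 1, G9a-Glp KO epiblast embryos 2 and 7, and the ExE libraries labelled Rnf2 KO of embryos 2, 5 and 6. In G9a-Glp KO epiblast Ehmt2 averaged 100.03% of wild type, from levels of 3.07 CPM, and only 1 of 6 libraries was below the second lowest wild-type library for it, against 4 of 6 for Ehmt1. Eed reads averaged 5.96% of wild type in Eed KO epiblast and 3.95% in ExE, whereas Rnf2 reads averaged 77.4% of wild type in the ExE libraries labelled Rnf2 KO.

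The genes lie on 6 chromosomes and share no cluster (mouse build mm10). Fkbp6 lies at chr5:135291703-135351810, Cdh15 at chr8:122848373-122867397, Cdkl4 at chr17:80523549-80578922, Tmcc1 at chr6:116018610-116193374, Zfp473 at chr7:44731479-44748617 and Galnt6 at chr15:100689914-100729376. 5 of the 6 had a RefSeq promoter window, here 250 bases before to 50 after an annotated start in build GRCm38.p6, the assembly also called mm10. CG dinucleotides, the sites that DNMT1 methylates, differ widely among them. The windows with most CG hold 32 in Fkbp6, 31 in Galnt6, 23 in Zfp473, 13 in Cdkl4 and 7 in Cdh15, against a median of 7 over 32851 mouse promoters. Fkbp6 and Cdh15, whose allelic balance moved furthest in Dnmt1 KO ExE together with that of Cdkl4, thus hold the most and the fewest CG. Those 2 windows and that of Zfp473, which also holds the first base of its divergent neighbour Vrk3, are printed from 5′ to 3′ on the gene's strand with every CG in capitals. They span chr5:135349864-135350163 (minus strand), chr8:122848124-122848423 (plus strand) and chr7:44748568-44748867 (minus strand).
Fkbp6: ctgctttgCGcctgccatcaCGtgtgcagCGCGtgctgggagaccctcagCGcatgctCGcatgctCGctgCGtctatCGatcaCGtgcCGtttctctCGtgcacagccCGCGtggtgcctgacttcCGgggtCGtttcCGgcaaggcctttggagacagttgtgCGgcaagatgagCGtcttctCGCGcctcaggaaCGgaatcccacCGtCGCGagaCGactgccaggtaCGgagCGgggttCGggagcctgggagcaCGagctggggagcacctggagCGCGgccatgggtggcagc
Cdh15: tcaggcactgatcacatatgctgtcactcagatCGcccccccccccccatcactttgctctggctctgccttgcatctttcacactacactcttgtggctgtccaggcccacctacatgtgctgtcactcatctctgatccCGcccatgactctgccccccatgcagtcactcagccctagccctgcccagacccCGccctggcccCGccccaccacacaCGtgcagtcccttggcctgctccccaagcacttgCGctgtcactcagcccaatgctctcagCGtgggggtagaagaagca
Zfp473: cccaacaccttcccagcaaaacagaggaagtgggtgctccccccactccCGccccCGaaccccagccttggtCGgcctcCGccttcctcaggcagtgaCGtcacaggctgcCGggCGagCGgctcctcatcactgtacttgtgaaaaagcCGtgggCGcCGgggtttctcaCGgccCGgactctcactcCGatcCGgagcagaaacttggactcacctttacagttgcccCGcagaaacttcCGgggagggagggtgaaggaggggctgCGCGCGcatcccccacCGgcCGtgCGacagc
A search on both strands found TGCCGC, the core bound by the imprint-protecting zinc finger protein ZFP57 when methylated, 1 time in the Fkbp6 window and 2 times in that of Galnt6. It was in 11.6% of all promoters. CACGTG, the E-box that basic helix-loop-helix factors such as MAX bind, was found 2 times in Fkbp6 and 1 time in Cdh15 and in 7.15% of all promoters. No match of 1 motif overlapped a match of the other, and a match describes letters only.

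In wild type, Fkbp6, an FK506-binding-protein family member required for piRNA production and meiosis in the male germ line, read from the paternal allele in both tissues. Its maternal share in BDF1xCAST epiblast was 0% at the lowest, 6.67% at the median and 30.0% at the highest over 7 libraries of 12 to 48 reads (mean 10.6% ± 10.03, SD). The 4 CASTxBDF1 epiblast libraries had 0%, 1.54%, 7.89% and 0% (2.36% ± 3.76). The paternal allele thus held the majority whichever strain the father was. In ExE the share ran from 0.606% through a median of 5.67% to 11% in BDF1xCAST (4.99% ± 3.47, n = 7), and the CASTxBDF1 libraries had 0.901%, 1.52%, 9.38% and 9.57% (5.34% ± 4.78, n = 4).

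Cdh15, which encodes M-cadherin, an adhesion molecule of skeletal muscle cells, was nearly silent on the maternal allele in ExE. The maternal share there was 0% at the lowest, 1.14% at the median and 4.396% at the highest in BDF1xCAST (1.74% ± 1.77, n = 7), and 20%, 16.1%, 0% and 4.65% in CASTxBDF1 (10.2% ± 9.40, n = 4). The 20% rests on 10 reads, and the other 3 CASTxBDF1 libraries had 43 to 56. In BDF1xCAST epiblast none of 47 reads was maternal, which allows a maternal share of up to 6.38% by counting error alone. Only 1 CASTxBDF1 epiblast library had 10 or more Cdh15 reads, with 7.14% maternal of 28 (95% Wilson interval 1.98% to 22.6%).

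The other 4 were less one-sided. Cdkl4, a member of the cyclin-dependent-kinase-like family, had 4.00%, 11.8%, 40.0%, 60.0% and 13.8% maternal reads in the 5 BDF1xCAST ExE libraries with at least 10 reads (25.9% ± 23.4). In CASTxBDF1 ExE it had 0%, 4.35%, 25.6% and 0% (7.50% ± 12.3, n = 4). In epiblast the same row leaned the other way, with 91.7% in the lone BDF1xCAST library with at least 10 reads (12 reads, interval 64.6% to 98.5%) and 90.0% and 81.2% in 2 CASTxBDF1 libraries. Zfp473, a zinc finger protein known for histone pre-mRNA processing, had 8.97%, 32.7% and 41.4% as lowest, median and highest in BDF1xCAST ExE (28.2% ± 13.2, n = 7). The CASTxBDF1 ExE libraries had 1.72%, 28.9%, 11.4% and 25.9% (16.98% ± 12.7), and all 11 wild-type ExE libraries lay under 50%. Its epiblast shares were nearer to balance, at 46.4% ± 8.41 (n = 7) and 40.1% ± 6.45 (n = 4).

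Galnt6, an enzyme that starts O-linked glycosylation, had 0%, 5.00% and 21.1% as lowest, median and highest in BDF1xCAST ExE (7.66% ± 7.38, n = 7) and 30.0%, 41.2% and 0% in the 3 CASTxBDF1 ExE libraries with at least 10 reads (23.7% ± 21.3). Tmcc1, an endoplasmic reticulum membrane protein, had 40.0%, 41.2%, 30.8%, 14.3% and 23.1% in BDF1xCAST epiblast (29.9% ± 11.4, n = 5) and 0%, 33.3% and 30.0% in CASTxBDF1 epiblast (21.1% ± 18.4, n = 3). These 2 genes rest on few reads, 7 to 66 per wild-type ExE library for Galnt6 and 4 to 45 per wild-type epiblast library for Tmcc1. Averaged over the crosses, so that strain cancels, the paternal allele exceeded an equal share by 44.8 points for Fkbp6, 44.0 for Cdh15, 33.3 for Cdkl4 and 27.4 for Zfp473 and 34.3 for Galnt6 in ExE, and by 24.5 for Tmcc1 in epiblast.

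**Figure D1:**
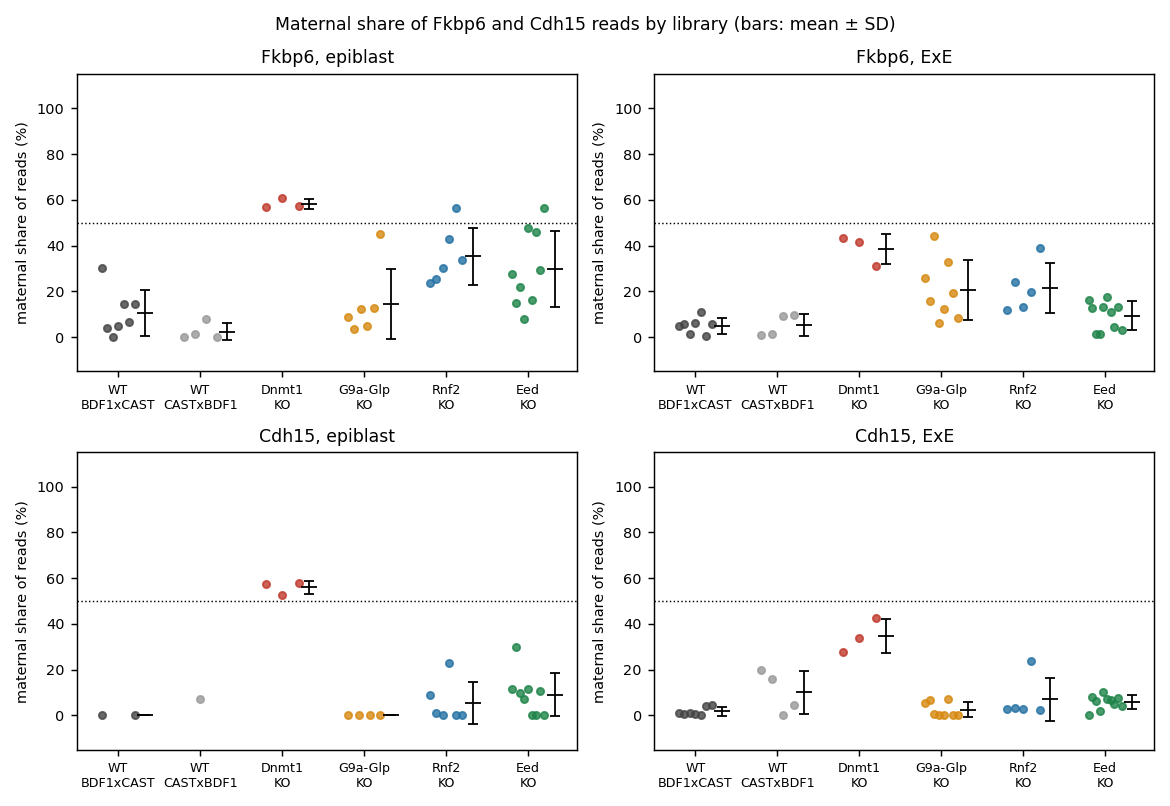
Maternal share of Fkbp6 and Cdh15 reads (percent, vertical axis) in each library with at least 10 reads, by group, in epiblast and ExE; bars are the mean ± SD and the dotted line marks 50%. The 3 Dnmt1 KO epiblast libraries lie between 56.7% and 60.7% for Fkbp6 and between 52.6% and 57.7% for Cdh15, above every wild-type library.

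Wild-type levels are given as a description, since being measurable in a tissue was part of how the genes came to be chosen. Fkbp6 was 3.74-fold higher in ExE than in epiblast over both crosses, with all 11 ExE libraries above the highest epiblast library. Cdh15 was 9.96-fold higher (10 of 11 ExE libraries above every epiblast library) and Cdkl4 2.64-fold higher (7 of 11). The Zfp473 ratio was 1.05. Of all genes tested, 66.7% differed between the tissues. Within ExE, Cdh15 was at 41.6 ± 12.7 CPM in BDF1xCAST and 11.1 ± 5.57 CPM in CASTxBDF1.

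The knockouts were compared with the 7 wild-type BDF1xCAST embryos. The allelic test asks whether the ratio of maternal to paternal reads changed. It uses the wild-type libraries that also served to choose the genes, so its results are no independent evidence of a bias in wild type, and the 4 knockouts share these wild-type libraries. In ExE, 5 of the 6 genes could be tested (Tmcc1 had too few reads). 3 of the 5 (Fkbp6, Cdh15 and Cdkl4) changed in Dnmt1 KO, where 0.986% of all autosomal genes tested did. None of 5 passed in G9a-Glp KO (1.25% of all genes) or in Rnf2 KO (1.22%), with lowest adjusted p-values of 0.192 and 0.0654, while 2 of 5 (Zfp473 and Galnt6) changed in Eed KO (2.98%). In epiblast, 1 of 2 genes tested changed in Dnmt1 KO (Fkbp6, against 1.03% of all genes), 0 of 2 in G9a-Glp KO (2.04%), 1 of 3 in Rnf2 KO (Tmcc1, against 0.86%) and 0 of 2 in Eed KO (1.23%). The 7 changes were toward the maternal allele, a direction that the choice of genes largely fixes. The median log2 change of the 5 tested genes in ExE was 3.63 in Dnmt1 KO, 1.38 in G9a-Glp KO, 2.46 in Rnf2 KO and 1.78 in Eed KO, against -0.01 over all genes, and genes chosen for a low maternal share in the reference libraries would give medians above that in any case.

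Total reads showed another pattern. In epiblast, where genes were counted in either direction, Fkbp6 and Cdh15 rose in Dnmt1 KO (2 of 4 genes tested, against 15.3% of all genes that changed), in Rnf2 KO (2 of 4, against 32.8%) and in Eed KO (2 of 3, against 37.3%). In G9a-Glp KO epiblast Fkbp6 rose and Tmcc1 fell (2 of 4, against 36.7%). Cdh15 had 0 to 12 reads per wild-type BDF1xCAST epiblast library. It passed the filter on low counts with knockout libraries that read it more, which favours a rise in these counts. Its epiblast calls also held in a fit without that filter. In ExE, every one of the genes described here that passed was higher. Fkbp6 and Cdh15 rose there in Dnmt1 KO (2 of 5, against 9.76% of all genes that rose), in G9a-Glp KO (2 of 5, against 9.13%) and in Rnf2 KO (2 of 5, against 13.9%). Zfp473 was the 1 of 5 that rose in Eed KO ExE, against 23.5% of all genes.

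**Figure D2:**
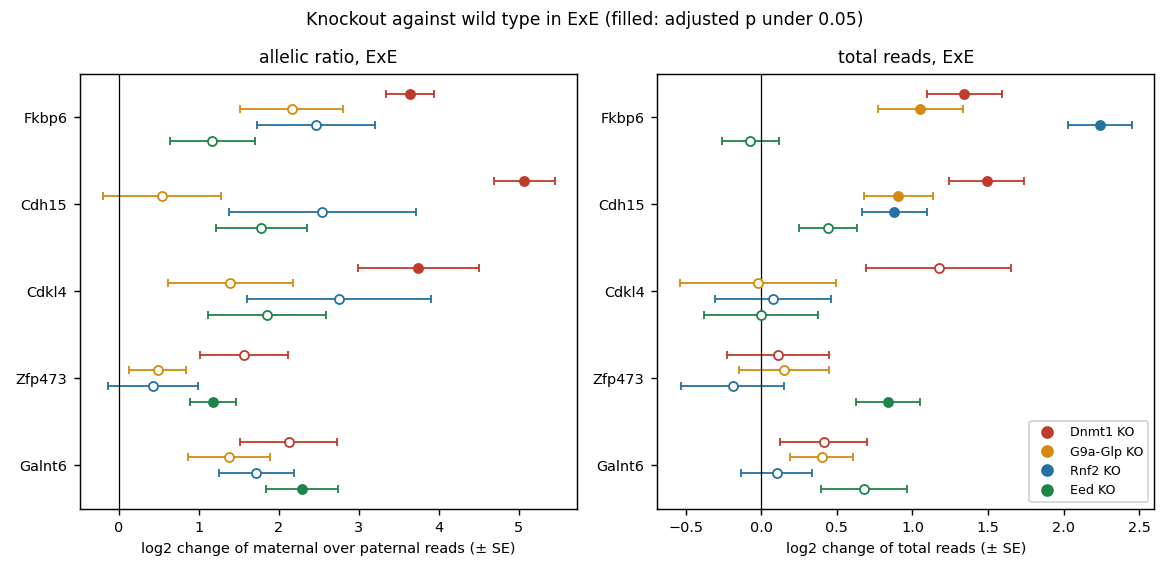
Fitted log2 changes (horizontal axes, ± SE) of the ratio of maternal to paternal reads (left) and of total reads (right) in ExE, each knockout against wild-type BDF1xCAST, for the 5 genes tested; filled points have an adjusted p under 0.05. Fkbp6, Cdh15 and Cdkl4 reach 3.63, 5.07 and 3.74 in Dnmt1 KO on the left, while the filled points for Fkbp6 and Cdh15 on the right extend to G9a-Glp KO and Rnf2 KO.

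In Dnmt1 KO, Fkbp6 was no longer mainly paternal in epiblast and became less paternal in ExE. The maternal share in the 3 Dnmt1 KO epiblast libraries was 56.7%, 60.7% and 57.4% (58.3% ± 2.10), close to the 57.2% average of autosomal reads in that group, against 10.6% ± 10.03 in wild type. All 3 lay above the highest wild-type library (log2 change 3.66 ± 0.41 SE, adjusted p = 3.59e-07). In ExE it was 43.3%, 41.5% and 31.0% (38.6% ± 6.63), again above every wild-type library (3.63 ± 0.30, adjusted p = 1.73e-08) but below 50% in all 3, where autosomal reads averaged 56.4% maternal. A limma test on the log2 ratio of the reads gave adjusted p = 0.0722 in epiblast and 0.115 in ExE, so the call rested on the count model. It held without the ExE library of embryo 1, in which Dnmt1 reads were not low (adjusted p = 3.086e-07).

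Both alleles contributed to the higher Fkbp6 level. In epiblast the total was 182 ± 70.2 CPM in Dnmt1 KO (129, 156 and 262 CPM) against 11.9 ± 6.10 CPM in wild type, a ratio of 15.3 (adjusted p = 1.26e-05). The maternal allele went from a mean of 1.22 CPM to 106 CPM and the paternal allele from 10.7 CPM to 76.2 CPM. In ExE the total was 183 ± 39.3 CPM against 61.2 ± 19.099 CPM (2.98-fold, adjusted p = 0.00247), with a maternal mean of 71.1 CPM against 2.91 CPM and a paternal mean of 111 CPM against 58.3 CPM. The tissues thus reached nearly the same total in Dnmt1 KO although they differed in wild type.

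In the libraries labelled Rnf2 KO the Fkbp6 level rose as far, with the paternal allele still in the majority on average. Epiblast held 102 CPM at the lowest, 199.8 CPM at the median and 337 CPM at the highest (206 ± 97.5, n = 6), 17.3-fold above wild type (adjusted p = 5.68e-07), and all 6 lay above every wild-type library. ExE held 302 ± 70.5 CPM (n = 5), 4.92-fold above wild type (adjusted p = 2.10e-06), again without overlap. The mean maternal and paternal levels were 79.8 CPM and 126 CPM in epiblast and 67.3 CPM and 234 CPM in ExE. The maternal share was 23.5%, 25.2%, 30.2%, 43.0%, 56.4% and 33.7% in epiblast (35.3% ± 12.4), where 4 of 6 libraries lay above the highest wild-type one (adjusted p = 0.386). In ExE it was 11.98%, 24.2%, 13.1%, 19.7% and 39.0% (21.6% ± 10.9), above all 7 wild-type libraries (adjusted p = 0.188). The ExE test passed with the 3 libraries in which Rnf2 was not low left out (log2 3.21, adjusted p = 0.00761) and in edgeR without robust estimation (adjusted p = 0.0230). The 6 epiblast libraries held 5549733 to 17653087 reads, against 1311863 to 3028267 in wild-type BDF1xCAST epiblast. The ExE libraries ranged from 1847681 reads (embryo 5, below every wild-type ExE library) to 10263280, against 2685835 to 3053690 in wild-type BDF1xCAST ExE. The part of depth in these shares was not tested.

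In Eed KO and G9a-Glp KO the level of Fkbp6 moved less than in Dnmt1 KO and the libraries labelled Rnf2 KO. The epiblast level was 31.8 ± 13.6 CPM in Eed KO (2.67-fold, adjusted p = 0.00267) and 31.6 ± 16.3 CPM in G9a-Glp KO (2.66-fold, adjusted p = 0.00436). In ExE it was 131 ± 52.5 CPM in G9a-Glp KO (2.14-fold, adjusted p = 0.0156) and 64.9 ± 18.2 CPM in Eed KO (adjusted p = 0.775). Both epiblast groups and the G9a-Glp KO ExE overlapped with wild type.

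The Fkbp6 maternal share in Eed KO epiblast spread from 8.00% through a median of 27.8% to 56.5% (29.8% ± 16.7, n = 9), with 3 of 9 libraries above the highest wild-type one (log2 2.26 ± 0.62, adjusted p = 0.0636). Leaving out wild-type embryo 1, whose share was 30.0%, gave adjusted p = 0.0292, and leaving out Eed KO embryo 3, 5 or 10 gave 0.0428, 0.0400 and 0.0133. In Eed KO ExE the share was 1.16% to 17.4% with a median of 11.997% (9.40% ± 6.26, n = 10, adjusted p = 0.336). In G9a-Glp KO epiblast 5 of 6 libraries had 3.57% to 12.6% and embryo 7 had 45.0% (interval 36.1% to 54.3%, adjusted p = 0.648). Embryos 7 and 2 are the libraries in which neither Ehmt1 nor Ehmt2 was low (Ehmt2 was not low in 5 of the 6), and without them the log2 change was 0.05 (adjusted p = 0.983). In G9a-Glp KO ExE the share ran from 5.96% through a median of 17.6% to 44.2% (20.6% ± 13.1, n = 8), with 6 of 8 above the highest wild-type library (adjusted p = 0.192). With the embryo number as a block, a number with no known meaning across groups, that test gave adjusted p = 1.80e-05. The fit in edgeR without robust estimation gave 0.0185.

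Tissues of the same embryo were paired for Fkbp6 and Cdh15. In 8 of 9 Eed KO embryos the maternal share of Fkbp6 was higher in epiblast than in ExE, by 19.8 ± 17.9 points on average (exact paired permutation test, two-sided, p = 0.0078125, adjusted p = 0.0625 over 8 tests, Cdh15 included). That does not pass the correction. For embryos 8, 9 and 10 the title numbers of the 2 tissues differ although the embryo labels match. Over the other 6 pairs the difference was 17.8 ± 14.8 points (5 of 6, exact p = 0.0625), and with pairs taken by title number it was 20.8 ± 14.8 points (8 of 9, exact p = 0.0078125). The difference was 19.7 points in Dnmt1 KO (3 of 3 embryos) and 26.6 points in Rnf2 KO (3 of 3), where an exact test cannot go below p = 0.25, and 2 of 5 G9a-Glp KO embryos showed it. In wild-type BDF1xCAST it was 5.64 points, higher in epiblast in 4 of 7 embryos, and in CASTxBDF1 it was -2.98 points (1 of 4). For Cdh15 the difference was 3.25 ± 9.36 points in Eed KO (6 of 9 embryos, exact p = 0.355) and 21.2 points in Dnmt1 KO (3 of 3). It was -1.98 points in G9a-Glp KO (0 of 3) and -1.94 points in Rnf2 KO (1 of 3).

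Tests between knockouts do not use the wild-type libraries that served the choice of genes. In ExE the Fkbp6 ratio was more maternal in Dnmt1 KO than in Eed KO (log2 2.47 ± 0.42, adjusted p = 0.0156, no overlap), among 2 of 5 genes that differed there against 0.616% of all genes. That call was lost without Dnmt1 KO embryo 1 (adjusted p = 0.0905) or embryo 2 (0.134), and in limma (0.165). In epiblast Fkbp6 was more maternal in Dnmt1 KO than in G9a-Glp KO (log2 2.67 ± 0.49, adjusted p = 0.0445), among 2 of 3 genes against 0.346% of all. It was lost in limma (0.309), with a minimum of 20 reads (0.0504) or 1 read (0.0568), and on leaving out any 1 of 8 libraries (adjusted p 0.0651 to 0.233), while leaving out G9a-Glp KO embryo 7 gave 8.305e-09, and 7.758e-08 without embryos 2 and 7. Dnmt1 KO against Eed KO in epiblast gave log2 1.41 ± 0.40 (adjusted p = 0.306), or 0.00348 without Eed KO embryo 9. In ExE the Fkbp6 ratio did not differ between Dnmt1 KO and G9a-Glp KO (adjusted p = 0.688). Nor did it differ between G9a-Glp KO and Eed KO (0.446 in ExE and 0.6635 in epiblast).

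Cdh15 also became less paternal in Dnmt1 KO, with the largest log2 change of the 5 genes in ExE. In Dnmt1 KO ExE the maternal share was 27.7%, 34.0% and 42.4% (34.7% ± 7.36) against at most 4.396% in wild type (log2 5.07 ± 0.38, adjusted p = 2.59e-11), and it stayed called without embryo 1 (adjusted p = 7.123e-11). In epiblast it was 57.5%, 52.6% and 57.7% (56.0% ± 2.88, 19 to 71 reads), where wild type had too few reads for a test. The maternal allele gave a mean of 49.1 CPM in ExE against 0.639 CPM in wild type and the paternal allele 87.4 CPM against 41.0 CPM. Total Cdh15 was 137 ± 45.2 CPM against 41.6 ± 12.7 CPM in ExE (3.28-fold, adjusted p = 0.00129) and 27.7 ± 17.3 CPM against 2.85 ± 1.54 CPM in epiblast (9.70-fold, adjusted p = 0.000855). The wild-type epiblast libraries held 0 to 12 Cdh15 reads, so the filter on low counts favours that epiblast rise.

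In the other knockouts Cdh15 remained mostly paternal. In G9a-Glp KO epiblast none of 94 reads was maternal (a share of up to 3.19% by counting error), and in ExE the share ran from 0% through 0.617% to 7.23% (2.57% ± 3.26, n = 8, adjusted p = 0.894). In Rnf2 KO epiblast it was 8.82%, 1.00%, 0%, 23.1%, 0% and 0% (5.48% ± 9.28). The ExE libraries labelled Rnf2 KO had 3.00%, 3.47%, 2.99%, 23.9% and 2.29% (7.13% ± 9.38, adjusted p = 0.405). Embryo 6, with 23.9% of 975 reads, was set apart from the other 4 and is among the libraries in which Rnf2 was not low. Eed KO ExE ran from 0% through 6.503% to 10.4% (5.72% ± 3.10, n = 10), with 7 of 10 above the highest wild-type library (log2 1.78 ± 0.57, adjusted p = 0.0791, or 0.0136 without Eed KO embryo 1). In Eed KO epiblast the share was 9.07% ± 9.43 (n = 9), at most 11.8% except for 30.1% in embryo 10.

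Total Cdh15 nevertheless rose in several of them. Wild-type BDF1xCAST epiblast libraries held 0 to 12 Cdh15 reads. The gene thus passed the filter on low counts there with knockout libraries that read it more, which favours a rise. In epiblast total Cdh15 was 5.41-fold above wild type in Eed KO (15.4 ± 8.70 CPM, adjusted p = 0.000212, all 9 above wild type) and 5.09-fold in Rnf2 KO (14.5 ± 7.16 CPM, adjusted p = 0.00295, 5 of 6). In G9a-Glp KO the ratio was 2.19 (adjusted p = 0.0910, or 0.0230 without embryo 7, whose library had 1 Cdh15 read). In ExE it was 1.97-fold in G9a-Glp KO (82.1 ± 31.2 CPM, adjusted p = 0.0105) and 1.90-fold in the libraries labelled Rnf2 KO (79.0 ± 24.8 CPM, adjusted p = 0.00700). The latter call was lost without embryos 2, 5 and 6 (log2 0.53, adjusted p = 0.239) and with the embryo number as a block (0.150). The Eed KO ExE ratio was 1.53 (adjusted p = 0.0690, and 0.0328 to 0.0428 without wild-type embryo 2 or Eed KO embryo 7 or 10).

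Against the other knockouts the Cdh15 ratio was more maternal in Dnmt1 KO in each test made. Against G9a-Glp KO the test passed in epiblast (adjusted p = 0.000138), where a size cannot be given because no maternal read was seen in G9a-Glp KO, and it gave log2 4.51 ± 0.54 in ExE (adjusted p = 0.00120), the 1 gene of 5 that differed there against 0.335% of all genes. Against Eed KO it gave 3.70 ± 0.59 in epiblast (adjusted p = 0.0002), the 1 gene of 3 against 0.331% of all, and 3.28 ± 0.33 in ExE (adjusted p = 1.98e-06). No library of the compared groups overlapped in any of the 4. A limma test did not pass in any of them (adjusted p 0.108 to 0.301). Between G9a-Glp KO and Eed KO in epiblast none of 4 genes differed (0.399% of all genes, lowest adjusted p 0.505).

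**Figure D3:**
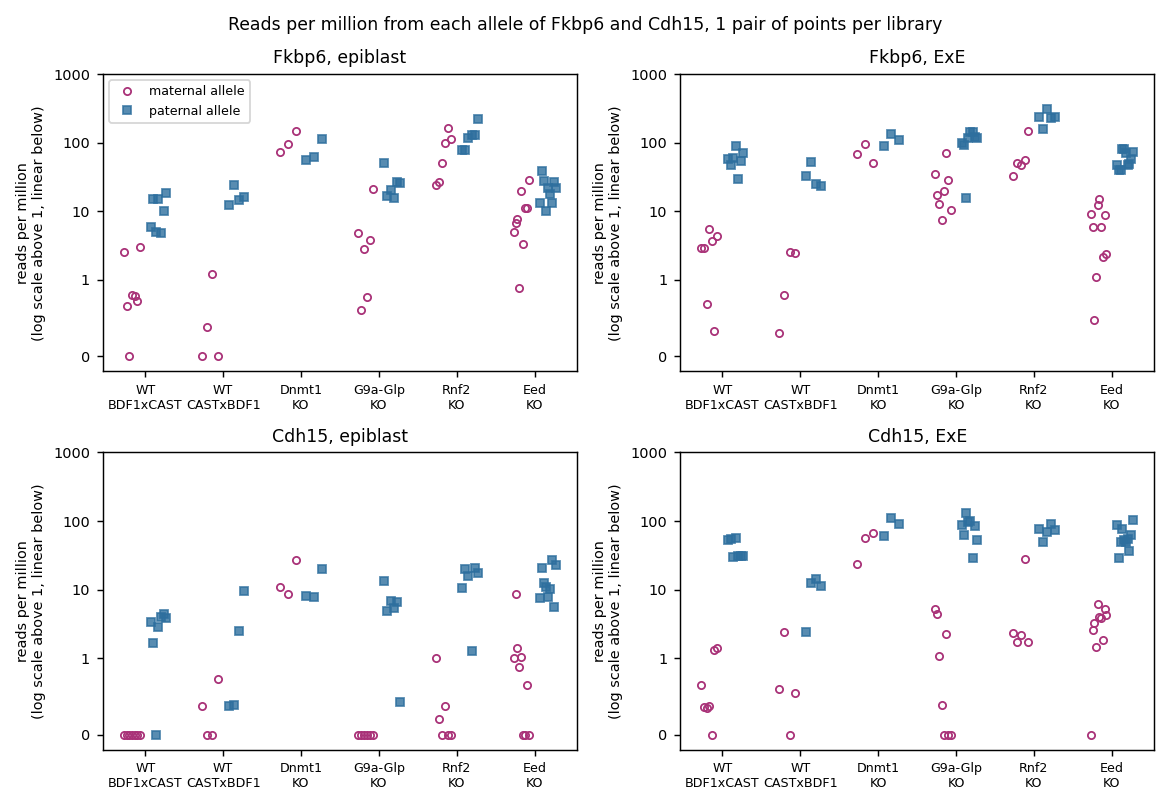
Level in CPM of the maternal (open circles) and paternal (filled squares) allele of Fkbp6 and Cdh15 in each library, by group and tissue, on a vertical axis that is logarithmic above 1 and linear below it. For Fkbp6 the mean maternal level is 106 CPM in Dnmt1 KO epiblast and 79.8 CPM in Rnf2 KO epiblast against 1.22 CPM in wild type, and for Cdh15 it is 15.7 CPM in Dnmt1 KO epiblast, where G9a-Glp KO has no maternal read.

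Over the 12 groups, the gene nearest to Fkbp6 in mean maternal share was Galnt6, with a mean absolute difference of 7.95 points over 9 groups, followed by Actn2 at 9.45 points over 6. Cdh15 had closer neighbours: Snhg14 at 3.88 points over 9 groups, Mcts2 at 3.98 points over 10 and Peg10 at 4.66 points over 8, among 9219 genes compared. Those 3 are known imprinted genes read from the paternal allele. The measure includes the wild-type shares on which Cdh15 was chosen, and a low wild-type share alone brings such genes near. For Snhg14 the Dnmt1 KO ExE group, with 1 library of at least 10 reads, was not compared. Cdkl4 was nearest to Fam198a (10.1 points over 6 groups), Zfp473 to Mmp2 (2.38 points over the 6 epiblast groups, with no ExE group compared) and Galnt6 to Tbc1d4 (6.08 points over 6). Tbc1d4 followed the strain, at 25.3% maternal in BDF1xCAST and 74.7% in CASTxBDF1 epiblast. Tmcc1 had too few groups with reads. The measure describes these groups only.

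Cdkl4 passed its threshold in Dnmt1 KO ExE on few reads. The maternal share was 85.7%, 75.0% and 81.6% (80.8% ± 5.40, 12 to 38 reads), above the 60.0% of the highest wild-type library (log2 3.74 ± 0.76, adjusted p = 0.0102). The call was lost without Dnmt1 KO embryo 1 (adjusted p = 0.0914), in which Dnmt1 reads were not low, without embryo 3 (0.0982), and in a limma test (0.588). The other knockouts spread widely, with 0% to 68.8% in G9a-Glp KO (38.8% ± 28.5, n = 4, adjusted p = 0.585), 32.6% to 100% in Rnf2 KO (68.3% ± 30.3, n = 5, adjusted p = 0.354) and 0% to 92.9% in Eed KO (56.9% ± 26.6, n = 8, adjusted p = 0.228). The total did not pass in any knockout ExE, and its mean was 13.7 ± 5.86 CPM in Dnmt1 KO against 5.30 ± 3.39 CPM in wild type (adjusted p = 0.103). The locus overlaps the unnamed transcripts Gm33373 and F420015M19Rik. Gm33373 held 11.9% as many reads as Cdkl4 in CASTxBDF1 epiblast and 15.2% in G9a-Glp KO epiblast, but 45.5% in BDF1xCAST, 51.6% in Rnf2 KO and 66% in Eed KO epiblast. Over all ExE libraries it held 14.2%. The summed Cdkl4 reads were 71.1% to 78.8% maternal in each of these 5 epiblast groups.

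Tmcc1 could be tested for allelic change in Rnf2 KO epiblast only. The maternal share there was 70.4%, 57.1%, 94.2% and 100% in the 4 libraries with at least 10 reads (80.4% ± 20.1), above the 41.2% of the highest wild-type library (log2 3.68 ± 0.77, adjusted p = 0.0151). With the embryo number as a block the adjusted p was 0.475, and in limma it was 0.279. In G9a-Glp KO epiblast total Tmcc1 fell to 1.86 ± 1.57 CPM from 7.04 ± 5.37 CPM (ratio 0.265, adjusted p = 0.00703). Being measurable in wild-type epiblast was part of the choice of Tmcc1, which favours a fall. A predicted transcript, LOC108169163, lies within Tmcc1 at chr6:116107874-116131865. It held 107 reads in wild-type BDF1xCAST epiblast where the Tmcc1 row held 117, and 19 in G9a-Glp KO epiblast where the row held 27. The wild-type bias, the Rnf2 KO share and the fall in G9a-Glp KO thus cannot be told apart from those of this transcript.

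Zfp473 was less paternal in Eed KO ExE than in wild type. Its maternal share there was 36.7% at the lowest, 46.1% at the median and 55.3% at the highest (45.0% ± 5.78, n = 10), with 6 of 10 libraries above the highest wild-type one and 8 of 10 below 50% (log2 1.18 ± 0.29, adjusted p = 0.0184). The call was lost without wild-type embryo 1, which had 8.97% (log2 0.85, adjusted p = 0.0643), with the embryo number as a block (0.126) and in limma (0.125). Its total was 64.1 ± 17.4 CPM against 32.5 ± 13.2 CPM (1.97-fold, adjusted p = 0.00317), with 8 of 10 libraries above wild type and a maternal mean of 28.7 CPM against 8.70 CPM. In the same libraries the epiblast markers summed to 340 to 617 CPM (wild type 114.7 to 299), the visceral endoderm markers to 38.3 to 76.1 CPM (12.2 to 27.5) and the ExE markers to a median of 450 CPM (680). Utf1 alone gave 333 to 605 CPM of that epiblast sum, while Pou5f1 was at 0 in 9 of 10 libraries and Otx2 in 5 of 10. Zfp473 is nearer to balance in wild-type epiblast, and the part of these markers in its share and level was not tested. In Dnmt1 KO ExE the shares were 49.0%, 46.0% and 60.3% (51.8% ± 7.51), also above all wild-type libraries, but the test did not pass (log2 1.56 ± 0.55, adjusted p = 0.367). G9a-Glp KO ExE (31.5% ± 7.99, n = 8) and the ExE libraries labelled Rnf2 KO (33.2% ± 18.4, n = 5) overlapped with wild type (adjusted p = 0.728 and 0.858).

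Between knockouts, the Zfp473 ratio was less maternal in G9a-Glp KO than in Eed KO ExE (log2 -0.69 ± 0.20, adjusted p = 0.0472), the 1 gene of 5 that differed against 2.62% of all genes. Leaving out any 1 of 14 of the 18 libraries lost that call (adjusted p 0.05002 to 0.159). Vrk3, which encodes a vaccinia-related kinase, starts at chr7:44748628, with 10 bases between the annotated genes. It was the 1 of 24 neighbouring genes examined that lay below 50% maternal in every wild-type library of the tissue: 18.5% to 48.3% in BDF1xCAST ExE (37.6% ± 10.3, n = 7) and 18.9% to 34.6% in CASTxBDF1 (25.8% ± 6.57, n = 4). Its mean share was 50.6% in Dnmt1 KO, 48.4% in G9a-Glp KO, 45.8% in Rnf2 KO and 49.0% in Eed KO ExE, with adjusted p-values of 0.274, 0.183, 0.383 and 0.0537. Total Vrk3 rose in Eed KO ExE (log2 0.86 ± 0.19, adjusted p = 0.00116). Over the 24 neighbours, 0 of 94 allelic tests passed (10 had an unadjusted p under 0.05 in edgeR's quasi-likelihood test).

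**Figure D4:**
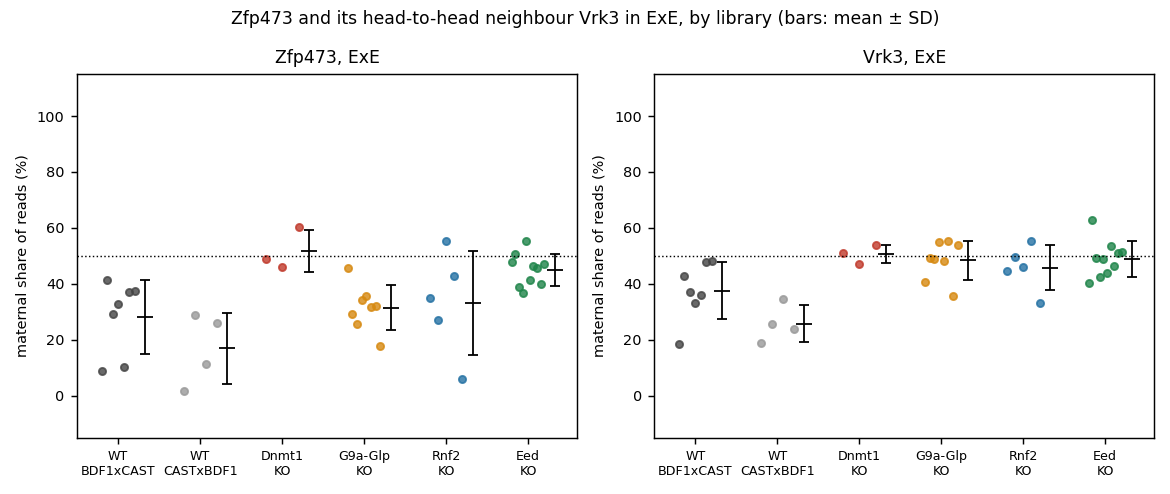
Maternal share (percent, vertical axes) of Zfp473 and of its divergent neighbour Vrk3 in each ExE library with at least 10 reads, by group, with bars for the mean ± SD. All 11 wild-type libraries lie under the dotted line at 50% for both genes, and Eed KO averages 45.0% for Zfp473 and 49.0% for Vrk3.

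Galnt6 changed in Eed KO ExE. Its maternal share was 11.4% at the lowest, 31.1% at the median and 39.8% at the highest (28.0% ± 10.5, n = 10) against 7.66% ± 7.38 in wild type, with 6 of 10 libraries above the highest wild-type one (log2 2.29 ± 0.45, adjusted p = 0.00113). The Dnmt1 KO libraries had 24.3%, 15.6% and 40.0% (26.6% ± 12.4, log2 2.12 ± 0.61, adjusted p = 0.103). Those labelled Rnf2 KO had 17.6%, 25.0%, 33.3%, 26.9% and 16.7% (23.9% ± 6.91, log2 1.72 ± 0.47, adjusted p = 0.0654). Without wild-type embryo 3, which had 21.1%, these became 0.0401 and 0.0209. G9a-Glp KO had 8.16% to 29.2% (18.9% ± 8.43, n = 8, adjusted p = 0.252). The paternal allele kept the larger share in every ExE library of every knockout. The marker sums given for Zfp473 in Eed KO ExE are of the same libraries, and their part in the Galnt6 share was not tested. Total Galnt6 did not pass in any knockout, and it was 23.0 ± 10.99 CPM in Eed KO against 12.7 ± 4.56 CPM (adjusted p = 0.0587, or 0.00715 without Eed KO embryo 10 and 0.0232 without wild-type embryo 6).

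**Figure D5:**
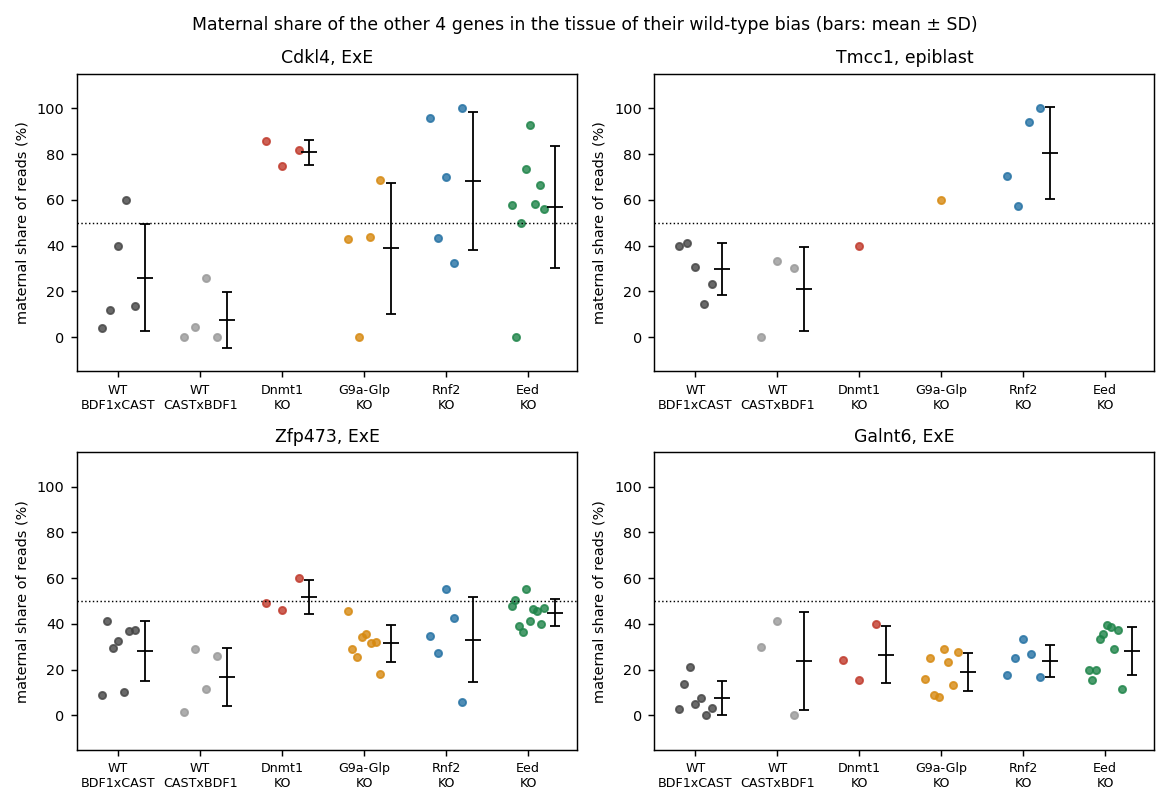
Maternal share (percent, vertical axes) of Cdkl4, Zfp473 and Galnt6 in ExE and of Tmcc1 in epiblast, in each library with at least 10 reads, by group, with bars for the mean ± SD. Cdkl4 lies at 75.0% to 85.7% in Dnmt1 KO, Tmcc1 at 57.1% to 100% in Rnf2 KO, and Galnt6 below 50% in every library shown.

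Genes of the same families or pathways were read from lists to set the 6 genes beside their relatives. Of 25 genes of germline genome defence and meiosis, the pathway in which Fkbp6 acts, 24 were in the table. In Rnf2 KO epiblast, where Fkbp6 rose 17.3-fold, 11 of the 12 tested rose, among them Sycp1 (log2 6.37 ± 0.46), a synaptonemal complex protein, and Piwil2 (4.13 ± 0.63), a piRNA-binding PIWI protein. The median log2 change was 2.83, against 0.01 over all genes. A gene nearly silent in wild type passes the filter on low counts only through knockout libraries that read it. The filter therefore favours genes of this list that rose, here and in the groups below, and the number tested differs between groups. In Dnmt1 KO epiblast 6 of 10 rose, Dazl (6.45 ± 0.81), a germ cell RNA-binding protein, and Sycp1 (5.71 ± 0.42) the furthest, and Sycp3 fell. G9a-Glp KO and Eed KO epiblast had 4 of 7 and 4 of 8 higher, each with Sycp3 lower. Of all genes, 15.3% changed in either direction in Dnmt1 KO epiblast, 36.7% in G9a-Glp KO, 32.8% in Rnf2 KO and 37.3% in Eed KO. In ExE the counts that rose were 1 of 11 in Dnmt1 KO (Tex19.1), 4 of 11 in G9a-Glp KO, 7 of 11 in Rnf2 KO and 8 of 12 in Eed KO, against 9.76%, 9.13%, 13.9% and 23.5% of all genes, while Fkbp6 itself did not pass in Eed KO ExE. No gene of this list changed its allelic ratio against wild type in any of the 8 comparisons, where 3 to 10 could be tested.

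Few relatives of the 6 genes could be tested for allelic change. Of 14 Fkbp family genes, 12 were in the table, and 0 of 6 to 9 tested changed allelic ratio in any knockout against wild type, where 0.86% to 2.98% of all genes did. None of the classical cadherins (1 to 3 tested), of the Cdkl family (at most 2 tested) or of the Tmcc family (at most 1) did either. In the Galnt family 1 of 8 changed in 1 comparison, Galnt7 in G9a-Glp KO ExE, toward the paternal allele (log2 -1.63 ± 0.40, adjusted p = 0.0246). Total Fkbp8 and total Cdh3, named because they passed, rose in Dnmt1 KO ExE (log2 1.70 ± 0.40 and 1.30 ± 0.35), where 9.76% of all genes rose. In Dnmt1 KO epiblast 2 of 10 Fkbp family genes tested rose and 1 fell. Of 5 classical cadherins tested there 0 changed in total reads, against 15.3% of all genes.

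Known imprinted genes were set beside these changes. Among the canonical imprinted genes listed, 7 of 14 tested in Dnmt1 KO ExE moved to the maternal and 3 to the paternal allele. Of all genes 0.986% changed there in either direction. Sgce changed by log2 6.34 ± 0.48, beside 5.07 for Cdh15 and 3.63 for Fkbp6. The fit gave 7.97 ± 0.67 for Peg10, but no wild-type BDF1xCAST ExE library had a maternal Peg10 read, so the data do not fix that size. Log2 sizes depend on how low the wild-type share was. The mean maternal share in Dnmt1 KO ExE was 40.4% for Peg10, 38.6% for Fkbp6 and 34.7% for Cdh15. None of 15 canonical genes moved in G9a-Glp KO ExE, where 1.25% of all genes changed. Among the noncanonical genes, 5 of 5 tested, Sfmbt2 among them (log2 11.05 ± 0.59), moved to the maternal allele in G9a-Glp KO ExE. Of the genes described here, 5 were tested there and none passed. In Eed KO ExE 4 of 5 noncanonical genes moved to the maternal allele, where 2.98% of all genes changed in either direction. In Eed KO ExE Jade1 changed by log2 3.11 ± 0.39, beside 2.29 for Galnt6 and 1.18 for Zfp473.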

How the data were processed

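RNA libraries of epiblast and ExE were made with SMART-Seq v4 and Nextera XT, per the labels' protocols. The submitters' processing notes name STAR 2.5.0, HTSeq and build mm10, without a role for each. The authors deposited, per gene and library, a count of reads over strain variants, an allelic ratio (CAST share minus 0.5, rounded) and a signed allelic score that, from the values, is -log10 of a binomial p and 0 under 10 reads. Allele counts were recovered from ratio and score, which matched for 99.986% of 712130 values. Values at the limit of the score (0.319%, holding 7.73% of reads, 1 of them from the 6 genes) used the rounded ratio. Maternal reads are CAST reads in CASTxBDF1 and BDF1 reads elsewhere.

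Shares use libraries with at least 10 reads. CPM ignores gene length, so levels were compared within a gene. Tests used edgeR 4.0.16 (quasi-likelihood, robust, Benjamini-Hochberg over all genes tested, threshold 0.05). For allelic ratios the fit held 2 columns per library, library terms, and autosomal genes with 10 reads in 3 libraries of each group. Alternatives used limma 3.58.1 (pseudocount 0.5), DESeq2 1.42.0 and the settings named in the closing section. The procedure was tested on simulated data. Depth limits precision. Intervals (95% Wilson) and limits for a share of 0 (3 reads) cover counting error only. Nothing in the labels says whether embryos of a group came from separate litters or injection days, so p-values measure the spread between these embryos.

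The 6 genes, the lists and the rule for other named genes were chosen with earlier results of these data known. That rule takes targeted genes, the 2 nearest measured genes on each side, the 3 genes nearest in share and up to 3 list members per direction by size of change among those past the threshold. Robust estimation, the tissue taken as the biased one, the test pairing tissues and the libraries left out for their targeted gene were settled after values were seen. Bisulfite data (1 sample) were not analysed here.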

Additional observations from a re-analysis of the deposited data

Results flagged for a closer look

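In 12 of 102 groups of 4 to 10 libraries 1 library stood apart from the rest by Dixon's criterion, where chance gives about 5% of groups. Among maternal shares, Fkbp6 was at 45.05% in G9a-Glp KO epiblast embryo 7, and Cdh15 was at 30.14% in Eed KO epiblast embryo 10 and at 23.9% in the ExE library labelled Rnf2 KO of embryo 6. No targeted gene was low in the first and the last of these libraries, and the part of that in the shares was not tested. Cdkl4 was at 25.64% in wild-type CASTxBDF1 ExE embryo 3, and at 0% in Eed KO ExE embryo 3, where the next lowest library was at 50%.

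Among levels, Cdkl4 reached 7.741 CPM in Eed KO epiblast embryo 2 and 16.12 CPM in Eed KO ExE embryo 9. Tmcc1 reached 18.97 CPM in wild-type BDF1xCAST epiblast embryo 1, 17.48 CPM in Rnf2 KO epiblast embryo 6 and 3.574 CPM in G9a-Glp KO ExE embryo 10. Galnt6 reached 2.669 CPM in wild-type CASTxBDF1 epiblast embryo 2 and 22.01 CPM in wild-type BDF1xCAST ExE embryo 6. Each of these 7 levels was the highest of its group.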

How the results depend on the processing

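Over 1724 alternatives for tests of the 6 genes, 1648 kept direction and side of the threshold, 49 lost a call, 27 gained one and none reversed. Counts of all genes moved more, and the causes were not tested. With limma on log2 ratios the genes changed in allelic ratio against wild type went in epiblast from 74 to 25 in Dnmt1 KO, 177 to 54 in G9a-Glp KO, 79 to 28 in Rnf2 KO and 111 to 23 in Eed KO. In ExE they went from 76 to 13, 109 to 36, 110 to 15 and 267 to 155. Between knockouts limma gave 13 for 25 (Dnmt1 against G9a-Glp) and 13 for 24 (Dnmt1 against Eed) in epiblast, and for G9a-Glp against Eed 19 for 37 in epiblast and 152 for 239 in ExE.

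With the embryo number as a block, Rnf2 KO gave 31 for 79 allelic and 1471 for 3208 total changes in epiblast, and 36 for 110 and 652 for 2276 in ExE. Eed KO epiblast gave 73 for 111 and 2178 for 3552, and G9a-Glp against Eed KO ExE gave 154 for 239. Same-numbered embryos of different groups carry different title numbers, so the number marks no known common origin. Such pairs correlated at -0.33 to 0.16 in Dnmt1 KO epiblast, which cannot show whether a litter or injection day was shared. Without the libraries whose targeted gene was not low, a setting chosen after seeing the data, Dnmt1 KO ExE gave 30 for 76 allelic and 1139 for 1799 total changes, Rnf2 KO ExE 59 for 110 and 965 for 2276, and Dnmt1 against Eed KO ExE 28 for 48. Without a filter on low counts the wild-type tissues differed at 9226 genes, against 6001. Leaving out 1 library each gave 37 to 106 allelic and 755 to 2376 total changes in Dnmt1 KO epiblast, 23 to 90 and 651 to 2163 in Dnmt1 KO ExE, 47 to 91 allelic changes in Rnf2 KO epiblast and 22 to 52 in Dnmt1 against Eed KO ExE.

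Among the 6 genes, Tmcc1 in Dnmt1 KO epiblast and Cdkl4 in Dnmt1 KO ExE passed for total reads with the block (adjusted p = 0.03128 and 0.03855), as did Fkbp6 in Dnmt1 against Eed KO epiblast (0.00934). Few reads limit Cdkl4, Tmcc1 and Galnt6 most. Summed over libraries, the Cdkl4 share was 76.19% in CASTxBDF1 epiblast and 78% in Eed KO epiblast, and with at least 20 reads the Tmcc1 share in Rnf2 KO ExE was 12.12%.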
